A study of Mus musculus with 8 samples.

Results

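The genes described here are the sensors and first signalling steps through which a cell detects DNA and RNA in its cytosol: Cgas and Tmem173 (STING), the shared kinase and transcription factor Tbk1 and Irf3, the nucleic acid enzymes Trex1 and Samhd1, the RNA helicases Ddx58 (RIG-I), Ifih1 (MDA5) and Dhx58 (LGP2), and their adaptor Mavs. They were chosen by name, by matching the Ensembl identifiers to GENCODE M21 symbols, and all 10 were found among 55573 listed genes. RNA labelled as polyA RNA was sequenced from mouse colon fibroblasts of the C57BL6/J strain grown on plastic in 8 libraries, in a series titled for inflammatory fibroblasts and therapy resistance in rectal cancer. The irradiated group of 4 libraries received 3 fractions of 2 Gy, and the non-irradiated group of 4 received none. Both groups had been given medium conditioned by APTKA, a name the labels do not expand, and RNA was taken from both at 72 h, counted from the first dose. The groups therefore differ in radiation alone by their labels, and no library without conditioned medium was analysed here. The samples are described as independent in the design, but no label ties them to separate animals or cultures, so a p-value sets a difference against the scatter of these libraries, some or all of which may be technical.

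In mammalian cells cGAS binds double-stranded DNA in the cytosol and makes the cyclic dinucleotide cGAMP, which binds STING on the endoplasmic reticulum. STING moves to the Golgi and recruits the kinase TBK1, which phosphorylates the transcription factor IRF3. RIG-I and MDA5 bind viral or misplaced cellular RNA and signal through MAVS on mitochondria to the same kinase and factor, which induce interferon beta and early antiviral genes. Ionizing radiation is known to leave chromosome fragments in micronuclei that cGAS can reach, and several sensors are themselves induced by interferon.

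Library totals ran from 30203137 to 36497990 counts in irradiated libraries and from 28731227 to 37157216 in non-irradiated libraries. Levels are in CPM, counts scaled to the same total in every library. Irradiated libraries I and II stood apart in mitochondrial 12S and 16S rRNA, with 15129 and 15263 CPM, while the remaining 6 held 4178 to 5934 CPM, and results that rest on this pair are also given without it. Of 12 fibroblast markers, 9 had at least 10 CPM in non-irradiated libraries, and S100a4, Fap and Lum stood below that level. Col1a2 and Vim were called lower, and the summed fibroblast level was 14800 to 16120 CPM in irradiated libraries and 16247 to 19079 CPM in non-irradiated libraries. All 10 epithelial markers, all 8 lymphocyte markers and all 5 enteric glia markers were under 1 CPM in both groups. The 8 macrophage markers summed to 15.03 to 16.11 CPM in irradiated and 13.1 to 16.08 CPM in non-irradiated libraries, nearly all of it Cd14 and Cd68, and Ptprc, Adgre1 and Itgam had 6, 2 and 1 counts over the 8 libraries. The 7 smooth muscle and pericyte markers summed to 282 to 326 CPM in irradiated and 329 to 353 CPM in non-irradiated libraries, most of it Actg2, which was called lower (291 CPM in irradiated and 334 CPM in non-irradiated cells), while Synm was called higher (4.88 CPM in irradiated and 3.01 CPM in non-irradiated cells). What part these marker differences have in the results was not tested. In bulk RNA, fewer cells with a transcript and less of it per cell cannot be told apart.

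Transcripts of the sensing machinery were present in both groups and differed little between them. Of the 9 members with counts, Ifih1 was called higher in irradiated cells (adjusted p below 0.05, edgeR's quasi-likelihood test), 0 were called lower, and 8 were not called. Over all 15259 genes tested, 6.74% were called, 2.59% higher and 4.15% lower, so 1 call among 9 genes is near the background. Before adjustment 3 members were higher (Ifih1, Ddx58 and Tbk1) and 1 was lower (Tmem173) at p under 0.05, a level that 21.2% of all tested genes reached. DESeq2 and limma-voom also called Ifih1 alone. The log2 fold changes of the 9 members, irradiated over non-irradiated, ran from -0.13 for Tmem173 to 0.16 for Ifih1 with a median of 0.01, beside a median of 0.00 over all tested genes. The median absolute change was 0.06 for the members and 0.09 for all tested genes. Every irradiated library exceeded every non-irradiated one for 2 of the 9, Ifih1 and Tbk1. Groups were separate in this way, in either direction, for 14.2% of all tested genes, with irradiated libraries higher for 6.13% and lower for 8.07%. The coefficient of variation between libraries was smaller in the irradiated than in the non-irradiated group for all 9 members, as it was for 65.8% of tested genes.

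**Figure D1:**
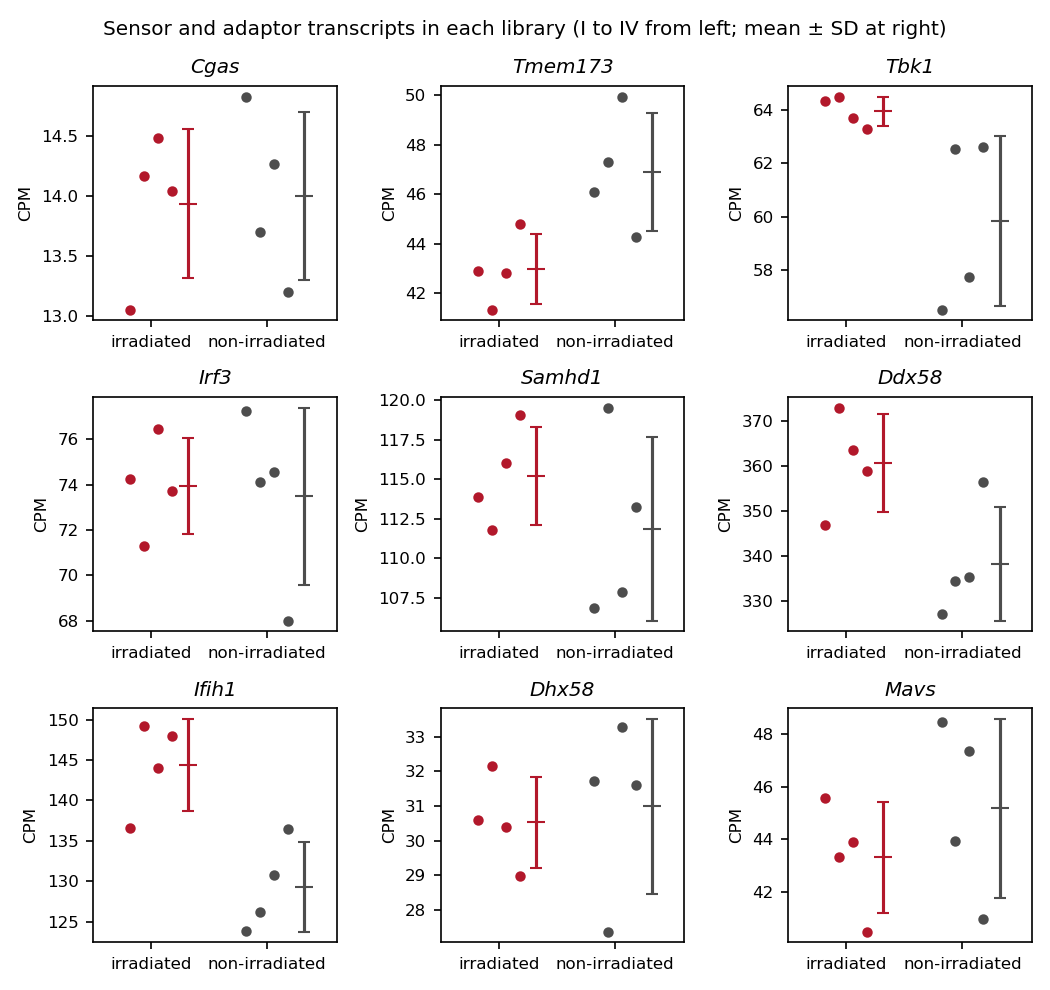
CPM of the 9 members with counts in each library, irradiated at left and non-irradiated at right, with libraries I to IV from left to right, the mean and SD beside them, and axes that do not start at 0. Ifih1 and Tbk1 are the genes without overlap of the groups.

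Cgas, the gene of the DNA sensor itself (ENSMUSG00000032344, chromosome 9 from 78430526 to 78443237 of mm10), showed no detectable difference. It had 13.1, 14.2, 14.5 and 14.04 CPM in irradiated I to IV, against 14.8, 13.7, 14.3 and 13.2 CPM in non-irradiated I to IV. The lowest and the highest of the 8 values belonged to irradiated I and non-irradiated I, and the groups overlapped throughout. The log2 fold change was -0.01 (SE 0.06, adjusted p = 0.970 by edgeR). Its 95% interval runs from -0.14 to 0.13, a change of -9.28% to 9.24%. At 3694 counts over the 8 libraries, Cgas was the least counted of the 9 members. Of its exon bases, 4.87% are shared with Gm8093 on the opposite strand.

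Tmem173 encodes STING, the adaptor that cGAMP activates (ENSMUSG00000024349, chromosome 18 from 35733679 to 35740554). It had 42.9, 41.3, 42.8 and 44.8 CPM in irradiated I to IV, against 46.1, 47.3, 49.9 and 44.3 CPM in non-irradiated I to IV. Irradiated IV was above non-irradiated IV, the single crossing between the groups. The means were 43.0 ± 1.42 CPM in irradiated and 46.9 ± 2.38 CPM in non-irradiated cells (SD, n = 4 each), a log2 fold change of -0.13 (SE 0.05, interval -0.23 to -0.03). The unadjusted p was 0.0143 (edgeR, a fit across all genes), and the adjusted p = 0.116 did not pass. The log2 fold change kept its sign in all 19 alternatives, between -0.16 and -0.09, and the adjusted p ran from 0.0786 to 0.490. In percent the difference was -8.48%, with an interval of -14.5% to -2.06%.

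Tbk1, the kinase on which the DNA and RNA routes converge (ENSMUSG00000020115, chromosome 10 from 121546455 to 121586787), was at 64.3, 64.5, 63.7 and 63.3 CPM in irradiated I to IV, against 56.5, 62.5, 57.7 and 62.6 CPM in non-irradiated I to IV. All 4 irradiated values lay close together and above the non-irradiated values, with non-irradiated II and IV just below the lowest. The means were 63.9 ± 0.552 CPM in irradiated and 59.8 ± 3.19 CPM in non-irradiated cells (SD, n = 4 each). The log2 fold change of 0.10 (SE 0.04, interval 0.00 to 0.19) had an unadjusted p = 0.0423 and an adjusted p = 0.216 by edgeR, and was not called. Over the 19 alternatives it ranged from 0.03 to 0.12 with an adjusted p from 0.138 to 0.629.

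Irf3, the transcription factor that TBK1 phosphorylates (ENSMUSG00000003184, chromosome 7 from 44997648 to 45002848), had 74.3, 71.3, 76.5 and 73.7 CPM in irradiated I to IV. Non-irradiated I to IV had 77.3, 74.1, 74.6 and 68.0 CPM, which enclose all the irradiated values. The log2 fold change was 0.01 (SE 0.05, adjusted p = 0.938, interval -0.09 to 0.11). Of the exon bases of Irf3, 2.56% are shared with Bcl2l12 on the opposite strand.

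The enzymes that remove cytosolic nucleic acid or its precursors could be followed for 1 of the 2 members. Samhd1, which hydrolyses deoxynucleotides and limits DNA in the cytosol (ENSMUSG00000027639, chromosome 2 from 157097533 to 157135265), had 114, 112, 116 and 119 CPM in irradiated I to IV, against 107, 120, 108 and 113 CPM in non-irradiated I to IV. The highest and the lowest values both came from non-irradiated libraries, and the log2 fold change was 0.04 (SE 0.04, adjusted p = 0.633, interval -0.05 to 0.14).

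Trex1, the main exonuclease against cytosolic DNA (ENSMUSG00000049734, chromosome 9 from 109057933 to 109059734), had 0 counts in all 8 libraries. All 1147 of its exon bases lie inside exons of Atrip on the same strand in GENCODE M21. Of 34 protein-coding genes placed in this way, 34 were at 0 in every library, and of 35 placed inside exons of a gene on the opposite strand alone, 34 were at 0. Among the other 21911 protein-coding genes, 19.1% were at 0. The 0 of Trex1 therefore gives no information on its transcript, and the usual limit of 3 counts was not applied to it. Atrip, which encodes the partner of the ATR kinase, was at 31.7 ± 2.16 CPM in irradiated and 33.0 ± 1.36 CPM in non-irradiated cells (SD, n = 4 each; log2 fold change -0.06, adjusted p = 0.605 by edgeR). Whether those counts hold any Trex1 reads cannot be told from gene totals.

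The gene called among the members, Ifih1, is one of the 3 RNA helicases, and another, Ddx58, was the most abundant member. The DNA around the start site is shown for Ddx58 and Ifih1 because several sensors are known to be induced by interferon, and the promoter windows of these 2 members hold the core of the interferon-stimulated response element. The core searched was GAAA, any 2 bases and GAAA again, on either strand, in RefSeq windows of GRCm38.p6 that run from 250 bases before to 50 bases after each start site. The match is in capitals in these 30 bases, written on the gene's strand:
Ddx58, chr4:40239804-40239833, minus strand: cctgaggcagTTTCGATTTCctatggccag
Ifih1, chr2:62646206-62646235, minus strand: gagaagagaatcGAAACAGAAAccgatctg
The match begins 2 bases after the start site of Ddx58 and 32 bases after that of Ifih1. A window was found for 8 of the 10 members, all but Dhx58 and Tmem173, and 2 of the 8 held the core. It was present in 3.44% of all 32851 windows, and in 37 of the 196 windows of the pathway lists described further on. A gamma-activated sequence (TTC, any 3 bases, GAA) was found in the Samhd1 window and an NF-kB letter pattern (GGG, any 3 bases, TTCC) in the Cgas window, which 8.3% and 5.56% of all windows hold. A match of letters does not show that a factor binds there.

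Ifih1 encodes MDA5, which recognises long double-stranded RNA (ENSMUSG00000026896, chromosome 2 from 62595798 to 62646255). It had 137, 149, 144 and 148 CPM in irradiated I to IV, against 124, 126, 131 and 136 CPM in non-irradiated I to IV. The groups did not overlap, but irradiated I (136.5 CPM) and non-irradiated IV (136.4 CPM) nearly met. Ifih1 rose to 144 ± 5.70 CPM in irradiated cells, against 129 ± 5.56 CPM in non-irradiated cells (SD, n = 4 each), an increase of 11.7% with an interval of 4.78% to 19.0% (log2 fold change 0.16, SE 0.04, adjusted p = 0.0401 by edgeR). The call held in 2 of the 8 refits lacking a single library, those without irradiated I (adjusted p = 0.0323) or non-irradiated IV (0.0324). It was lost without irradiated II (0.111), III (0.0908) or IV (0.123), and without non-irradiated I (0.104), II (0.0844) or III (0.0585). The log2 fold change stayed between 0.14 and 0.19 in those refits and was 0.17 without both irradiated I and II (adjusted p = 0.0992).

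Ddx58, the gene of RIG-I, the sensor of 5'-triphosphate RNA (ENSMUSG00000040296, chromosome 4 from 40203773 to 40239828), was at 347, 373, 364 and 359 CPM in irradiated I to IV, against 327, 334, 335 and 357 CPM in non-irradiated I to IV. Non-irradiated IV exceeded irradiated I, and the other irradiated libraries were above every non-irradiated one. The log2 fold change was 0.09 (SE 0.04, interval 0.01 to 0.17), with an unadjusted p = 0.0275 and an adjusted p = 0.169 by edgeR, so it was not called. The difference was 6.62%, with an interval of 0.832% to 12.7%, and 0 of 19 alternatives called it (log2 fold change 0.06 to 0.12, adjusted p from 0.0952 to 0.392). For both helicases irradiated I was the lowest irradiated library and non-irradiated IV the highest non-irradiated one.

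Dhx58 encodes LGP2, a helicase without signalling domains that modulates the other 2 (ENSMUSG00000017830, chromosome 11 from 100694884 to 100704271). It had 30.6, 32.1, 30.4 and 29.0 CPM in irradiated I to IV, against 31.7, 27.4, 33.3 and 31.6 CPM in non-irradiated I to IV. The non-irradiated values enclosed the irradiated ones, and the log2 fold change was -0.02 (SE 0.06, adjusted p = 0.880, interval -0.15 to 0.11). An antisense gene on the opposite strand, Dhx58os, shares 4.31% of its exon bases.

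Mavs, the mitochondrial adaptor of RIG-I and MDA5 (ENSMUSG00000037523, chromosome 2 from 131234063 to 131248025), was at 45.6, 43.3, 43.9 and 40.5 CPM in irradiated I to IV. In non-irradiated I to IV it was at 48.4, 43.9, 47.3 and 41.0 CPM. The groups overlapped, library IV was the lowest in each group, and the log2 fold change was -0.06 (SE 0.06, adjusted p = 0.591, interval -0.18 to 0.06).

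**Figure D2:**
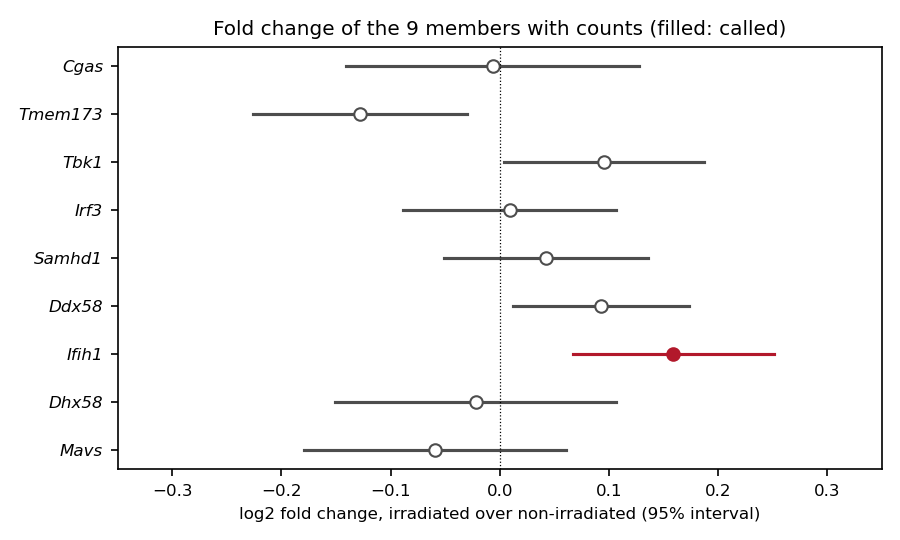
Log2 fold change of irradiated over non-irradiated libraries with its 95% interval for the 9 members with counts, the called gene Ifih1 filled. All intervals lie between -0.23 and 0.25, and those of Tmem173, Tbk1, Ddx58 and Ifih1 leave out 0 before adjustment over all genes.

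Per length of transcript, Ddx58 stood above all other members. It averaged 51.2 CPM per kb of merged exons in irradiated and 48.0 in non-irradiated cells, and its lowest library was above the highest of Irf3, which averaged 21.5 CPM per kb in irradiated and 21.4 in non-irradiated cells. The ranges of Ifih1, Tmem173, Tbk1, Mavs and Samhd1 each met that of the next in order, from Ifih1 (17.7 CPM per kb in irradiated and 15.8 in non-irradiated cells) to Samhd1 (12.6 in irradiated and 12.2 in non-irradiated cells), so that neighbours among these 5 genes are not separated. The place of Samhd1 depends on the length used: by its longest transcript its level in non-irradiated cells was 28.5 CPM per kb, next after Ddx58 and Irf3. Dhx58 followed at 9.33 CPM per kb in irradiated and 9.47 in non-irradiated cells, and Cgas was lowest of the members with counts at 3.38 in irradiated and 3.39 in non-irradiated cells. The highest Cgas library, at 3.59, was below the lowest of Dhx58, at 8.36. Among the RIG-I-like receptors, Ddx58 made up 65.4% ± 0.178 of the summed CPM per kb in irradiated and 65.5% ± 0.890 in non-irradiated cells (SD, n = 4 each). The Ifih1 share was 22.2%, 22.6%, 22.5% and 23.3% in irradiated I to IV, against 21.3%, 21.7%, 21.7% and 21.7% in non-irradiated I to IV, so that all irradiated libraries were above all non-irradiated ones. The Dhx58 share was 11.9% ± 0.449 in irradiated and 12.9% ± 0.956 in non-irradiated cells. These shares are a description, without a test. They depend on the length used, which their SDs do not cover. By longest transcript, Ddx58, Ifih1 and Dhx58 were at 87.3, 23.6 and 12.8 CPM per kb in non-irradiated cells.

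**Figure D3:**
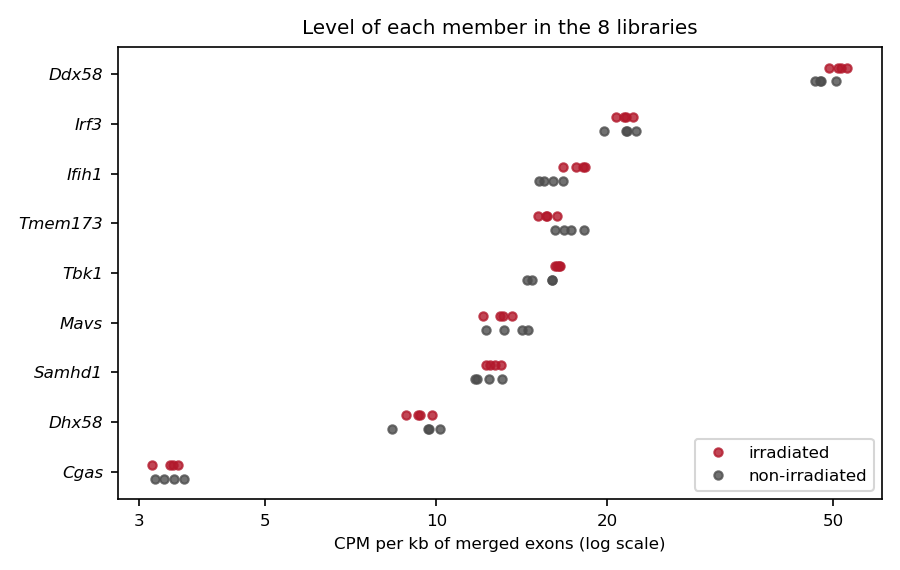
CPM per kb of merged exon length on a log scale for the 9 members with counts, ordered by level, each library a point, irradiated above non-irradiated. Ddx58 and Irf3 stand apart at the top and Dhx58 and Cgas at the bottom, while the 5 genes between them overlap with their neighbours.

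Around the members, 10 lists of pathway genes held 178 tested genes, of which 13 were called higher and 7 lower, 11.2% in all beside 6.74% of all tested genes (2.59% higher and 4.15% lower). The lists were chosen with earlier results of these data known, so the difference between these shares is a description and not a test. Among 26 tested cGAS and STING regulators, 4 were lower and 1 was higher, with a median log2 fold change of -0.06. Enpp1, the hydrolase that degrades extracellular cGAMP, had 13.3, 13.9, 14.3 and 13.5 CPM in irradiated I to IV, against 16.4, 18.9, 16.1 and 17.0 CPM in non-irradiated I to IV. All irradiated libraries were below all non-irradiated ones (log2 fold change -0.31, SE 0.06, adjusted p = 0.0102 by edgeR). Copa, a subunit of the COPI coat that returns STING to the endoplasmic reticulum, fell to 519 ± 13.7 CPM in irradiated cells, against 583 ± 17.1 CPM in non-irradiated cells (SD, n = 4 each; -0.17, adjusted p = 0.0117). Abcc1, a transporter that exports cGAMP among many substrates (-0.14, adjusted p = 0.0365 by edgeR), and Insig1, a sterol-regulated protein of the endoplasmic reticulum (-0.22, adjusted p = 0.0453), were also lower. The groups of Insig1 overlapped, with irradiated IV (33.3 CPM) above non-irradiated II (32.9 CPM). Tmem203, reported to bind STING, was the higher gene (6.64 ± 0.841 CPM in irradiated and 4.70 ± 0.340 CPM in non-irradiated cells; 0.50, SE 0.10, adjusted p = 0.0104). Surf4, a cargo receptor of the same return step as Copa, was not called (-0.12, adjusted p = 0.0868).

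Among 26 tested partners of MAVS and TBK1, 2 were higher and 1 was lower, with a median of 0.03. Of all tested genes, 2.59% were called higher and 4.15% lower. Ikbke, the closest relative of TBK1 and its partner in phosphorylating IRF3, had 65.7, 67.3, 64.9 and 64.03 CPM in irradiated I to IV, against 52.7, 57.8, 49.3 and 56.5 CPM in non-irradiated I to IV. The groups were well apart (log2 fold change 0.28, SE 0.05, adjusted p = 0.00389 by edgeR). March5, a mitochondrial ubiquitin ligase that removes MAVS aggregates, was higher mainly through irradiated III and IV (122, 115, 136 and 141 CPM in irradiated I to IV, against 110 to 113 CPM in non-irradiated libraries; 0.22, adjusted p = 0.0367). Traip, a ubiquitin ligase reported to act on TBK1, was lower (1.94 ± 0.322 CPM in irradiated and 2.79 ± 0.280 CPM in non-irradiated cells; -0.53, adjusted p = 0.0383). Traf3, which links MAVS to TBK1, Tax1bp1 and Tomm70a were not called (log2 fold changes -0.03, 0.05 and 0.08, adjusted p = 0.748, 0.376 and 0.196).

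Of 22 tested regulators of RIG-I and MDA5, Zc3hav1, which binds viral RNA and aids RIG-I, was the 1 called gene (394 ± 12.5 CPM in irradiated and 360 ± 4.58 CPM in non-irradiated cells, SD, n = 4 each; log2 fold change 0.13, adjusted p = 0.0359 by edgeR), and the median was -0.01. Tnfaip3 and Ywhae were not called (0.09 and -0.03, adjusted p = 0.178 and 0.903). Of 17 tested DNA sensors beside cGAS, Ifi204, which cooperates with STING in mouse cells, was the 1 called gene (141 ± 5.76 CPM in irradiated and 123 ± 9.45 CPM in non-irradiated cells; 0.20, adjusted p = 0.0368), and the median was 0.01. It has near copies in the genome, so its count is uncertain. The 1 call is 4.55% of the regulators of RIG-I and MDA5 and 5.88% of the DNA sensors. Both are near the 6.74% called over all tested genes. Lrrfip1 and Dhx36 were not called (0.00 and 0.03, adjusted p = 0.987 and 0.676).

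Of 15 tested genes of nucleic acid clearance, the RNA-editing enzyme Adarb1 was lower (log2 fold change -0.17, adjusted p = 0.0238 by edgeR), and the median was 0.04. The 1 call is 6.67% of this list, near the 6.74% called over all tested genes. Adar, which edits double-stranded RNA and so shields it from MDA5, Ttc37 of the RNA-degrading SKI complex, and the ribonuclease H2 genes Rnaseh2a, Rnaseh2b and Rnaseh2c were not called (adjusted p = 0.567, 0.154, 0.433, 0.411 and 0.243). Of 13 tested endosomal sensor genes 0 were called by edgeR. At an unadjusted p under 0.05, which 21.2% of all tested genes reached, 3 were lower and 0 higher. Of these 13 genes DESeq2 called 1 lower and limma-voom 0, and the share DESeq2 called over all genes is not given here. Their median was -0.05, and the proteases Ctsl and Ctsb were at -0.07 and -0.13 (adjusted p = 0.404 and 0.277). The receptor genes Tlr7, Tlr8, Tlr9 and Tlr13 had 13, 1, 24 and 42 counts over all 8 libraries and were not tested.

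Transcripts of the interferons that the sensors induce were scarce. Ifnb1, interferon beta, had 15, 8, 6 and 9 counts in irradiated I to IV, against 6, 3, 9 and 10 counts in non-irradiated I to IV, too few to be tested, and the groups overlapped. Ifna1, Ifna4, Ifna5, Ifna6, Ifnl2 and Ifnl3 had 0 counts, which allows up to 3 counts over the 4 libraries of a group for counting error only, and Ifna2 had 1 count in all. That limit does not cover reads dropped in mapping or counting, whose settings the sources do not state, so 0 counts do not show absence. Of 13 tested genes of interferon receptors and signalling, 0 were called by edgeR. At an unadjusted p under 0.05, which 21.2% of all tested genes reached, 3 were higher and 0 lower. Of these 13 genes DESeq2 called 2 higher and limma-voom 0, and the share DESeq2 called over all genes is not given here. The median was 0.06. The receptor chains Ifnar1 and Ifnar2 and the signalling genes Jak1 and Ptpn11 had log2 fold changes of -0.03, 0.07, 0.06 and 0.00 (adjusted p = 0.700, 0.470, 0.271 and 0.995).

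Of 34 tested interferon and IRF3 target genes, 5 were called higher and 1 lower, and the median log2 fold change was 0.10. Of all tested genes, 2.59% were called higher and 4.15% lower. Of the 34, 31 had a positive log2 fold change, as had 50.3% of all tested genes. These genes are not independent of each other. For Ifit1, Ifit3, Isg15 and Usp18, among others, irradiated II was the highest irradiated and non-irradiated II the lowest non-irradiated library. That was not so for every target, and Irgm1 was lowest in non-irradiated I. How far the shared sign rests on these libraries was not tested. Ifit1, which binds foreign RNA caps, had 337, 409, 349 and 369 CPM in irradiated I to IV, against 279, 245, 313 and 290 CPM in non-irradiated I to IV, without overlap (0.38, SE 0.07, adjusted p = 0.00565 by edgeR). The interferon-induced genes of GTPase families Irgm1 (0.27, adjusted p = 0.00168 by edgeR), Mx2 (0.27, 0.0125), Igtp (0.19, 0.0225) and Gbp2 (0.20, 0.0439) were higher, and Ifi27, which encodes a mitochondrial protein, was lower (-0.26, 0.00762). Mx2 is annotated as a polymorphic pseudogene in GENCODE M21. Usp18 (0.21, 0.0700), Isg15 (0.09, 0.701), Cxcl10 (0.12, 0.180) and Ccl5 (0.25, 0.370) were not called.

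Among 20 antiviral effectors, which share genes with the lists above, 4 were called higher and 0 lower by edgeR, and the median was 0.09. Of all tested genes, 2.59% were called higher and 4.15% lower. At an unadjusted p under 0.05, which 21.2% of all tested genes reached, 7 effectors were higher and 1 was lower. The 4 called genes were Ifit1, Zc3hav1, Slfn8 (log2 fold change 0.34, adjusted p = 0.00594 by edgeR) and Eif2ak2, the kinase PKR that halts translation on double-stranded RNA (0.17, 0.0368). Slfn2 (0.18, 0.0760) and Ifit3 (0.32, 0.0891) were not called. Of 9 tested interferon regulatory factors and binding partners, Irf2bp2, a corepressor partner of IRF2, was higher, and the median was 0.08. It had 347, 364, 463 and 474 CPM in irradiated I to IV, against 333, 327, 347 and 315 CPM in non-irradiated I to IV (0.32, adjusted p = 0.0410). Irradiated I and II were near the non-irradiated level and III and IV well above it. Irf1 (0.12, 0.0863), Irf7 (0.08, 0.517) and Irf9 (0.04, 0.690) were not called.

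Enpp1, Copa, Tmem203, Ikbke, Ifit1, Slfn8, Irgm1, Mx2 and Ifi27 stayed called in all 8 refits lacking a single library. The calls of Abcc1, Insig1, March5, Traip, Zc3hav1, Adarb1, Eif2ak2, Irf2bp2 and Gbp2 held in 2 of those 8 refits, that of Ifi204 in 3 and that of Igtp in 4. The groups of Insig1 and of Gbp2 overlapped. Insig1 reached the highest adjusted p in these refits, 0.136 by edgeR without irradiated II. Without both irradiated I and II, the adjusted p by edgeR was 0.0809 for Enpp1, 0.0586 for Copa, 0.0578 for Ikbke, 0.0520 for Slfn8 and 0.0579 for Mx2. It was 0.382 for Insig1, whose log2 fold change was then -0.13, 0.212 for Traip, 0.210 for Abcc1, 0.158 for Adarb1, 0.141 for Eif2ak2, 0.136 for Gbp2, 0.134 for Ifi204, 0.0992 for Igtp and 0.0849 for Zc3hav1. Tmem203, March5, Ifit1, Irf2bp2, Irgm1 and Ifi27 stayed called without the pair. For Tmem203, March5 and Irf2bp2 the highest values were in irradiated III and IV. Leaving out I and II keeps those values, so it does not test whether these calls rest on them. A refit without III and IV was not made.

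**Figure D4:**
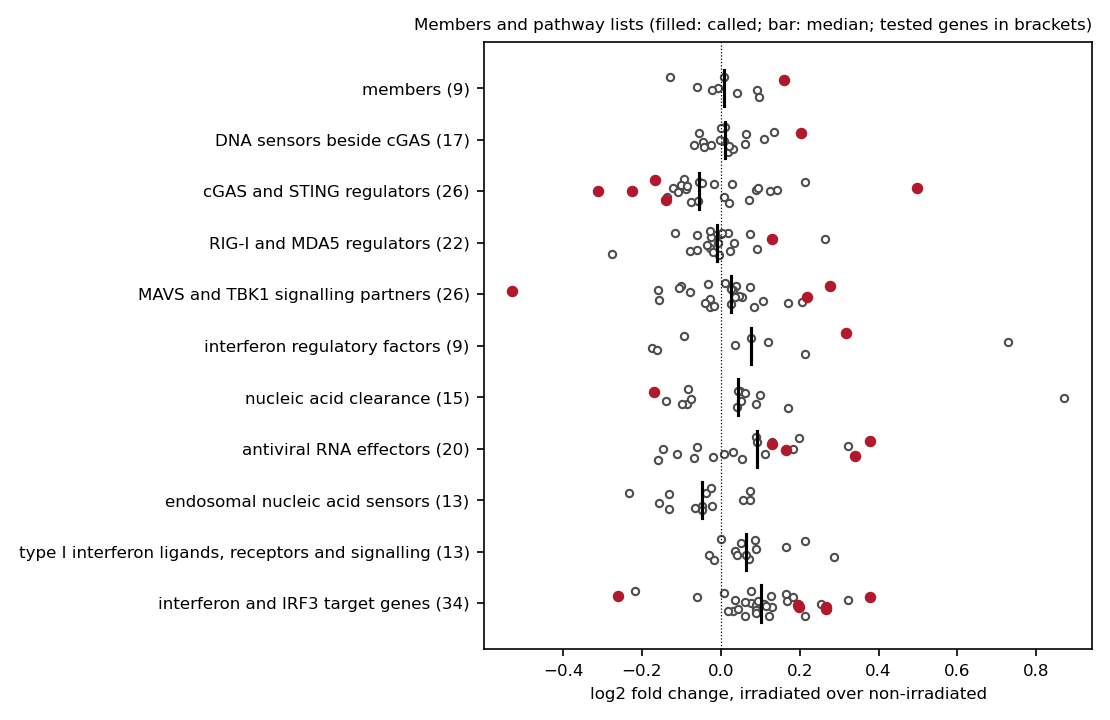
Log2 fold change of irradiated over non-irradiated libraries for each tested gene of the members and of the 10 pathway lists, called genes filled, the median of each list as a bar. Called genes are mostly lower among cGAS and STING regulators and mostly higher among antiviral effectors and target genes, whose median is 0.10.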

How the data were processed

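Raw read counts per Ensembl gene were deposited by the authors, 1 file for each library, with nothing normalized. The submitters' processing notes name bcl2fastq (2.20.0.422), STAR (2.5.2a), featureCounts (1.5.0-p1) and mm10. Sources used here do not state the annotation release, the strand setting or how reads shared by overlapping genes were treated. Symbols, coordinates and exon lengths came from GENCODE M21 (GRCm38, the assembly of mm10). With edgeR 4.0.16 (R 4.3.3), TMM factors were computed, filterByExpr (minimum count 10, minimum total 15) kept 15259 genes, and the quasi-likelihood test compared the groups over all 8 libraries with group as the only term. P-values were adjusted over these genes by the Benjamini-Hochberg method, and genes were called under 0.05. CPM used TMM-scaled library sizes, except for mitochondrial rRNA, which was set against the unadjusted totals. SEs came from the fold change and F statistic, and intervals cover 95%. The test was tried on simulated counts. Alternatives were other scaling factors, DESeq2 1.42.0, limma-voom (limma 3.58.1), other filters, a stricter threshold, a replicate block and left-out libraries.

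The members and lists were chosen with earlier results of these data known. Named from each list were up to 5 called genes by adjusted p, the 2 most abundant uncalled genes and a set given by name. A few genes that this takes are not reported here. Gbp2, Atrip, the untested receptor genes and interferons other than Ifnb1 were added after their values were seen. In no pair of libraries of a group did the counts agree within counting noise (chi-square per degree of freedom of 5.12 or more), so none was merged. The irradiated group split into 2 pairs, I with II (5.46) and III with IV (5.12), against 16.0 to 27.6 between libraries of different pairs. Non-irradiated pairs ran from 5.29 to 13.9. The cause of the split was not tested.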

Additional observations from a re-analysis of the deposited data

Results flagged for a closer look

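In 4 of the 116 groups of 4 libraries examined, 1 library stood far from the other 3 by Dixon's criterion, about as many as chance flags (1 in 20). None was a member gene. Lrrfip1 was at 264 CPM in irradiated II, below 285 to 289 CPM in the other irradiated libraries. Dhx36 was at 258 CPM in irradiated IV, above 248 to 249 CPM. Ifnar1 was at 171 CPM in irradiated II, above 167 CPM in each of the others. Ctsl was at 889 CPM in non-irradiated III, above 791 to 796 CPM in the other non-irradiated libraries.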

How the results depend on the processing

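The 1 call among the members became 0 with total counts in place of scaling factors, at a threshold of 0.01, without irradiated I and II together and without non-irradiated I and III together. Leaving out 1 library gave 0 to 1 calls, and no alternative called a member lower. Over the 10 lists, the 13 higher calls became 20 with DESeq2, 23 without a filter, 4 at a threshold of 0.01 and 7 without irradiated I and II, and 6 to 14 with 1 library left out. The 7 lower calls became 1 at a threshold of 0.01 and 1 without irradiated I and II, and 3 to 6 with 1 library left out. Counts over all tested genes under each alternative are not given here. A change of the lists relative to all genes therefore cannot be read from these numbers. With the longest transcript as length, 6 of 10 members kept their rank, Trex1 at 0 among them, and Samhd1 moved from rank 7 to rank 3.

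Signs turned for uncalled genes, and the cause was not tested. Most had log2 fold changes near 0, but Ctsb (-0.13) and Isg15 (0.09) did not. Ptpn11 was at 0.00118 with RLE factors, 0.00423 with upper-quartile factors, 0.00125 with DESeq2, 0.000306 with limma-voom, 0.00234 without a filter and 0.00407 with at least 1 CPM in 4 libraries. Lrrfip1 was at 0.00249, 0.000969 and 0.00254 with upper-quartile factors, without a filter and with at least 1 CPM. Without irradiated I and II, Cgas was at 0.0265 and Lrrfip1 at 0.0214. Without non-irradiated I and III, Cgas was at 0.0518, Samhd1 at -0.0137, Dhx58 at 0.0513, Mavs at 0.0319, Dhx36 at -0.0132, Ywhae at 0.0589, Ctsb at 0.0273, Ptpn11 at 0.0431, Ifnar1 at 0.0132 and Traf3 at 0.00838. With 1 library left out, Cgas ran from -0.0338 to 0.0248, Irf3 from -0.0268 to 0.0333, Dhx58 from -0.0749 to 0.0151, Lrrfip1 from -0.0212 to 0.0260, Ptpn11 from -0.0189 to 0.0198, Ywhae from -0.111 to 0.0399 and Isg15 from -0.0300 to 0.158.

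The replicate numerals are shared by the groups, but same-numbered libraries deviated together weakly (r = 0.06, -0.09, 0.33 and 0.15 across genes), and 2 of 4 irradiated libraries correlated best with their own number. With the replicate block the lists had 16 higher and 8 lower calls, Ifih1 had an adjusted p = 0.0193 (edgeR), and Ptpn11 was at 2.75e-05. Cgas, with 3694 counts, and Trex1, with 0, limit what depth and counting can show among the members.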
